A study of Mus musculus with 4 samples.

Results

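The schlafen genes measured here are 7 mouse genes, Slfn1, Slfn2, Slfn3, Slfn4, Slfn5, Slfn8 and Slfn9, a cluster on chromosome 11. Cdk5r1, the gene knocked out in this study, lies on the same chromosome with 44 other genes of the RefSeq gene table between it and the cluster. All probes whose transcript accession belongs to one of these symbols were taken, which gave 9 probes for 7 of the 20886 genes with a symbol on the array. Slfn8 and Slfn9 have 2 probes each and the other genes have 1. The set was selected on measured values: a Slfn8 probe had a very low knockout over wildtype ratio on these arrays while another did not. Every knockout over wildtype value of a schlafen probe is therefore given as a description, without a test.

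Each array compared RNA of CDK5R1 knockout macrophages, labelled with Cy5, with RNA of wildtype macrophages, labelled with Cy3. The cells came from bone marrow of male mice 6 weeks old and were grown for 7 days with 25 ng/ml of the growth factor GM-CSF. In the first condition the cells of both genotypes had received 100 ng/ml lipopolysaccharide (LPS) of E. coli for 6 hours, and in the other, called basal, they had not. There were 2 LPS and 2 basal arrays. Both channels of every array carry the strain label B6.129S4-Cdk5r1tm1Lht/J, and the labels do not say whether the wildtype mice were littermates. Nor do they say whether the stretch of chromosome 11 with Cdk5r1 and the schlafen genes is of the same strain in both genotypes. A strain difference there and the loss of Cdk5r1 thus cannot be told apart in a knockout over wildtype ratio. The labels name biological replicates but neither the animals behind them nor any pooling of RNA, so the p-values measure only the spread between these samples. The dyes were never swapped, so a dye effect of a probe and the genotype cannot be told apart in a knockout over wildtype ratio. Where LPS is set against basal within 1 channel, a constant dye effect drops out for a probe with signal in both conditions.

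Schlafen proteins share a core domain with a fold that binds and, in several members, cuts RNA. Mouse schlafens are grouped by length: Slfn1 and Slfn2 are short, Slfn3 and Slfn4 are intermediate, and Slfn5, Slfn8 and Slfn9 are long proteins that end in a helicase-like domain. The family was first described in mouse thymocytes, where it was tied to growth arrest and quiescence, and several members are known as interferon-induced genes of macrophages. LPS, a bacterial cell wall component, makes macrophages secrete interferon beta, whose receptor switches on transcription factors that bind the interferon-stimulated response element. The product of Cdk5r1 is p35, a protein that switches on the kinase CDK5.

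The median foreground of a spot was 116 to 145.5 intensity units in the knockout channel and 76 to 97.5 in the wildtype channel, over median backgrounds of 46 to 48 in the knockout and 25 to 27 in the wildtype channel. Pearson's r of the log2 ratios was 0.77 between the 2 LPS arrays, 0.61 between the 2 basal arrays and 0.47 to 0.63 for an LPS array with a basal one, across 28652 probes that are not independent. A probe entered the tests if either channel was well above background on 2 arrays; all 9 schlafen probes passed this filter, none was saturated and none carried an outlier flag. Precision is limited by there being 4 arrays. Of 8 macrophage markers 7 were matched to a probe, and these 7 were well above background on both arrays in each group. Both Cdk5r1 probes gave less signal from knockout than from wildtype RNA on each array, at log2 ratios of -2.55 and -2.29 under LPS and -0.37 and -0.59 under basal conditions for one, and -2.0 and -2.03 under LPS and -0.47 and -0.51 under basal conditions for the other. Both kept signal in the knockout channel, and their place relative to the deletion is not known here.

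LPS raised all 9 schlafen probes in both genotypes. Levels are log2 intensities after correction for background and normalisation within and across arrays, and every ± below is a standard error (SE) of the moderated fit, with n = 2 arrays per condition. Where the genotypes are said below to overlap or not, 2 levels are set against 2, without regard to which channels share an array. How many of all probes show no such overlap was not counted, so nothing about a gene is read from it. By limma's moderated test with Benjamini-Hochberg adjustment over 28652 probes, 9 of 9 rose and 0 fell in knockout cells, and likewise 9 of 9 rose and 0 fell in wildtype cells. Among all probes, 19.2% were called higher and 22.9% lower under LPS in knockout cells, against 18.4% higher and 23.5% lower in wildtype cells. The median log2 response of the 9 probes was 2.96 in knockout and 3.21 in wildtype cells, beside medians over all probes of -0.02 in knockout and -0.01 in wildtype cells. For each of the 9 probes, both LPS levels lay above both basal levels, as held for 36% of all probes in knockout and 36.1% in wildtype cells. Markers of the cell types in such cultures moved with LPS too. Of 12 macrophage marker probes, 2 rose, those of Cd14 and Mertk, and 5 fell in each genotype. The summed level of their 7 genes was 99779 to 131671 under LPS and 206860 to 252777 at baseline in knockout cells. In wildtype cells it was 121367 to 133945 under LPS and 211994 to 212520 at baseline. Bright probes weigh most in these sums of linear levels. The brightest at baseline, of Csf1r, had mean log2 levels of 14.84 under LPS and 17.18 at baseline in knockout cells. In wildtype cells its means were 14.94 under LPS and 16.92 at baseline. Of 10 granulocyte marker probes, 5 rose and 1 fell in knockout cells, and 7 rose and 1 fell in wildtype cells. Of 4 eosinophil, mast cell and basophil marker probes, 1 rose in knockout and 4 in wildtype cells. Of 7 dendritic cell marker probes, 4 rose and 3 fell in knockout cells, and 3 rose and 3 fell in wildtype cells. Their summed level was 217188 to 233466 under LPS and 100686 to 115487 at baseline in knockout cells. In wildtype cells that sum was 203514 to 222626 under LPS and 110029 to 126182 at baseline. Of 4 marker probes each for T cells, B cells and stromal cells, 1 rose and 0 fell in each genotype. The part of these cells in the LPS responses of the schlafen probes was not tested.

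**Figure D1:**
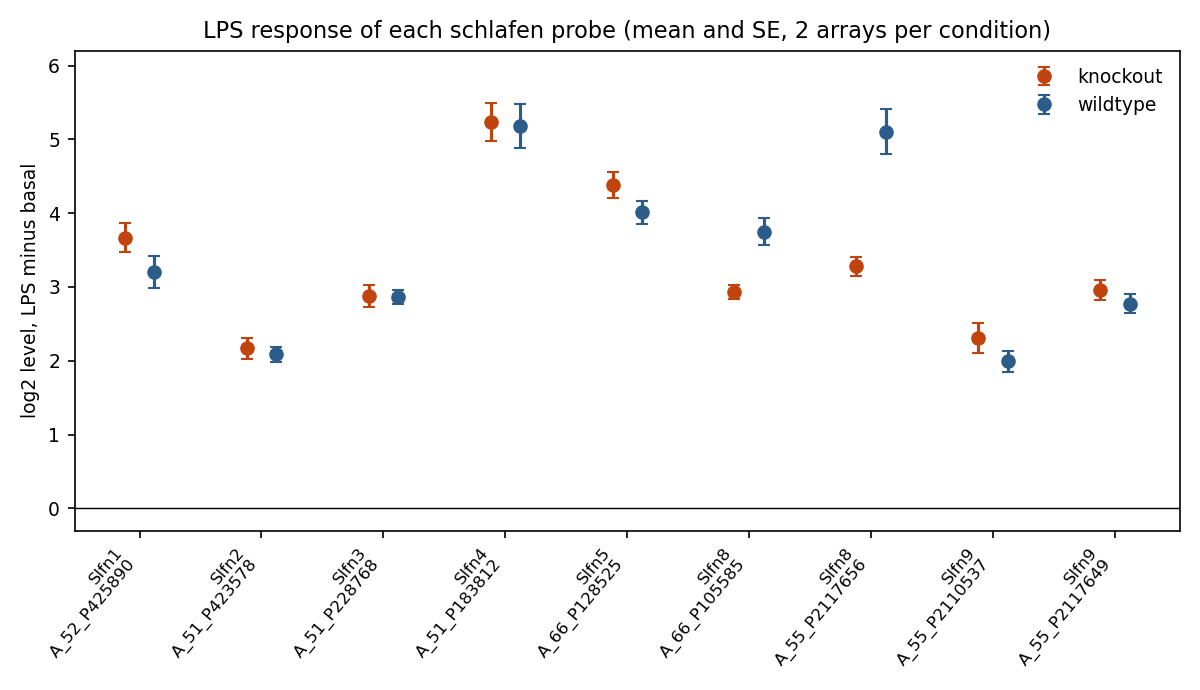
The vertical axis gives the LPS minus basal difference in log2 level for each schlafen probe, with its moderated standard error as bars, from 2 arrays per condition; knockout cells are drawn to the left of wildtype cells. Every response lies above 0, from 2.17 to 5.24 in knockout cells and from 1.99 to 5.18 in wildtype cells.

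Of the short members, Slfn1, the founder of the family, had log2 levels of 10.27 and 10.66 in LPS-treated knockout cells and 6.96 and 6.63 in basal knockout cells. In wildtype cells they were 10.13 and 10.74 under LPS and 7.23 and 7.22 at baseline. The genotypes overlapped under LPS and did not at baseline, where both knockout values were below both wildtype values. Slfn1 rose by 3.67 ± 0.19 in knockout cells (12.7-fold, limma adjusted p = 0.000815) and by 3.21 ± 0.22 in wildtype cells (9.23-fold, limma adjusted p = 0.00107), and with the processed signals by 4.80 in knockout and 4.01 in wildtype cells.

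Slfn2, whose loss in mice makes T cells leave quiescence, gave strong signals on every array. Its log2 levels were 15.04 and 15.15 in LPS-treated knockout cells and 13.07 and 12.79 in basal knockout cells, and in wildtype cells they were 15.26 and 15.12 under LPS and 13.10 and 13.09 at baseline. The LPS and basal levels lay far apart in both genotypes, and the genotypes overlapped under LPS only. Slfn2 rose by 2.17 ± 0.14 in knockout cells (4.49-fold, limma adjusted p = 0.00114) and by 2.09 ± 0.10 in wildtype cells (4.26-fold, limma adjusted p = 0.000559).

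Of the intermediate members, Slfn3 had log2 levels of 10.79 and 10.45 in LPS-treated knockout cells and 7.73 and 7.74 in basal knockout cells. In wildtype cells its levels were 10.84 and 10.72 under LPS and 7.94 and 7.89 at baseline. Its response was nearly the same size in both channels, at 2.88 ± 0.15 in knockout cells (7.37-fold, limma adjusted p = 0.000783) and 2.87 ± 0.098 in wildtype cells (7.29-fold, limma adjusted p = 0.000358).

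Slfn4, a myeloid schlafen known to be induced by interferon and Toll-like receptor ligands, came from close to background. Its log2 levels were 11.15 and 11.87 in LPS-treated knockout cells and 6.21 and 6.33 in basal knockout cells, where it was not well above background on either array. In wildtype cells they were 11.38 and 12.27 under LPS and 6.63 and 6.65 at baseline, well above background on both arrays. Because the basal knockout level is only a bound, Slfn4 was at least 37.8-fold higher under LPS in knockout cells (limma adjusted p = 0.000746). This bound sets the LPS mean against, on each basal array, the higher of the probe's own level and the lowest level among probes well above background. In wildtype cells Slfn4 rose by 5.18 ± 0.30 (36.3-fold, limma adjusted p = 0.000795). In wildtype cells the Slfn8 probe A_55_P2117656, at 5.10 ± 0.30, lay within the error of Slfn4, and it was the higher of the 2 without basal replicate 1 or without LPS replicate 2. With the processed signals the response of Slfn4 was 7.74 in knockout and 6.71 in wildtype cells.

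Of the long members, Slfn5 had log2 levels of 11.51 and 11.27 in LPS-treated knockout cells and 7.20 and 6.83 in basal knockout cells. In wildtype cells they were 11.85 and 11.501 under LPS and 7.75 and 7.59 at baseline. Slfn5 was below the wildtype channel of the same array on all 4 arrays, and the 2 genotypes overlapped under LPS and not at baseline. It rose by 4.38 ± 0.17 in knockout cells (20.8-fold, limma adjusted p = 0.000518) and by 4.01 ± 0.15 in wildtype cells (16.1-fold, limma adjusted p = 0.000407). With the processed signals the response in knockout cells was 5.41.

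The 2 probes of Slfn9 kept the same order of conditions. The first, A_55_P2110537, had log2 levels of 13.18 and 13.06 in LPS-treated and 11.08 and 10.54 in basal knockout cells, beside 12.91 and 12.82 in LPS-treated and 11.05 and 10.70 in basal wildtype cells. Its response was 2.31 ± 0.21 in knockout cells (4.97-fold, limma adjusted p = 0.0023) and 1.99 ± 0.15 in wildtype cells (3.98-fold, limma adjusted p = 0.00123). Both knockout values were above both wildtype values under LPS, while the genotypes overlapped at baseline.

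The other Slfn9 probe, A_55_P2117649, had log2 levels of 12.46 and 12.22 in LPS-treated and 9.44 and 9.31 in basal knockout cells, beside 12.14 and 11.95 in LPS-treated and 9.38 and 9.16 in basal wildtype cells. It rose by 2.96 ± 0.13 in knockout cells (7.78-fold, limma adjusted p = 0.000619) and by 2.78 ± 0.13 in wildtype cells (6.85-fold, limma adjusted p = 0.000542). Like the first, it was higher in knockout than in wildtype cells without overlap under LPS only. Within each basal array its knockout channel was the higher as well, at log2 ratios of 0.06 and 0.16.

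Slfn8 is the long schlafen next to Slfn9 and was read by 2 probes for different transcripts. The probe A_66_P105585, for NM_001167743, had log2 levels of 10.46 and 10.49 in LPS-treated and 7.56 and 7.52 in basal knockout cells, beside 11.30 and 10.83 in LPS-treated and 7.38 and 7.26 in basal wildtype cells. It rose by 2.93 ± 0.098 in knockout cells (7.65-fold, limma adjusted p = 0.000478) and by 3.75 ± 0.18 in wildtype cells (13.4-fold, limma adjusted p = 0.000566), and with the processed signals by 3.60 in knockout and 4.43 in wildtype cells. Its knockout levels were below its wildtype levels under LPS and above them at baseline, without overlap in either condition.

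The probe A_55_P2117656, for NM_181545, had the widest gap between the genotypes. Its raw foreground intensity was 1231 and 1011.5 in LPS-treated knockout cells, against 21901 and 24121.5 in LPS-treated wildtype cells. At baseline it was 137 and 114 in knockout cells, against 1145 and 660 in wildtype cells. The knockout channel was far below the wildtype channel on every array, but it was well above its background on every array, so signal was left. The median foreground of the knockout channel was 116 and 118 on the LPS arrays and 145.5 and 139 on the basal arrays.

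The log2 levels of this Slfn8 probe were 10.07 and 9.92 in LPS-treated and 6.81 and 6.61 in basal knockout cells, beside 14.87 and 14.95 in LPS-treated and 10.25 and 9.37 in basal wildtype cells. In order, the LPS-treated wildtype cells were highest, the LPS-treated knockout cells and the basal wildtype cells overlapped, and the basal knockout cells were lowest. The probe still rose under LPS in knockout cells, by 3.28 ± 0.13 (9.73-fold, limma adjusted p = 0.000509), and it rose by 5.10 ± 0.30 in wildtype cells (34.4-fold, limma adjusted p = 0.000827). With the processed signals the response in knockout cells was 4.32. The difference between the 2 responses was not tested, since it is part of the contrast on which the set was selected.

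**Figure D2:**
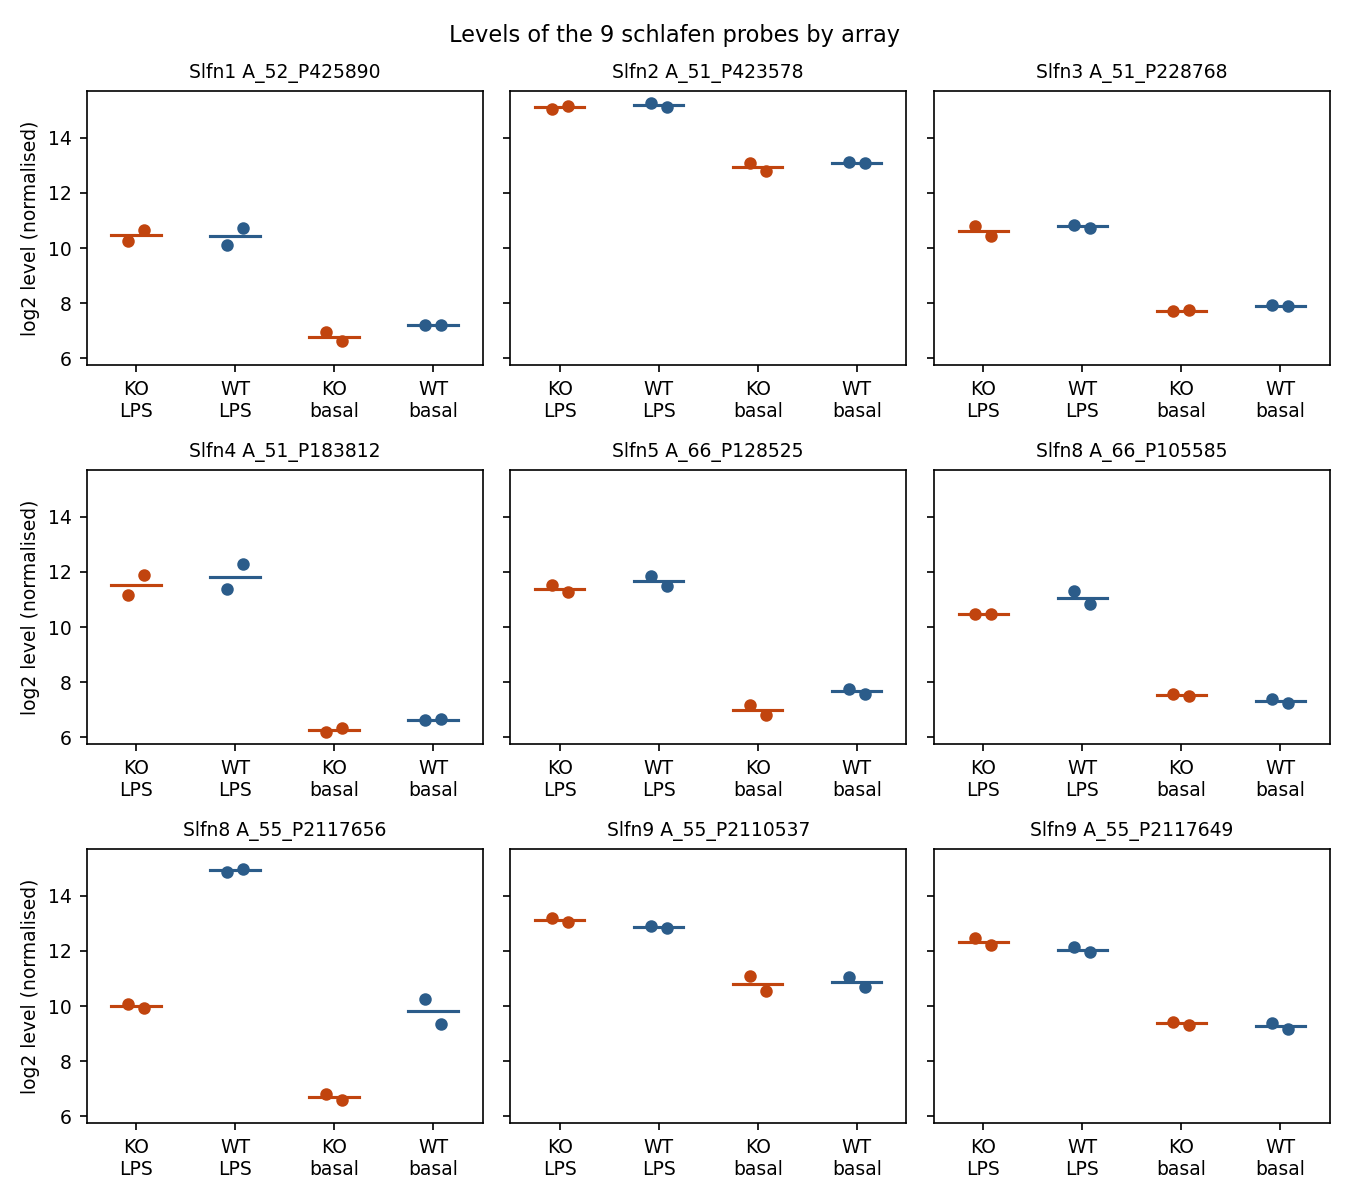
Each panel shows 1 schlafen probe, with its normalised log2 level on the vertical axis, 1 point per array channel and a line at the mean of the 2 arrays. Knockout cells stand left of wildtype cells and LPS left of basal; the Slfn8 probe A_55_P2117656 has knockout levels of 9.92 to 10.07 under LPS, against 14.87 to 14.95 in wildtype cells, while in the other 8 panels the channels of an array differ by at most 0.84.

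As a description of the values that singled out the family, the log2 ratio of knockout over wildtype for the Slfn8 probe A_55_P2117656 was -4.80 and -5.03 on the LPS arrays and -3.44 and -2.76 on the basal arrays. The mean was -4.92 ± 0.15 under LPS, a 30.2-fold higher wildtype level, and -3.10 ± 0.15 at baseline, an 8.57-fold higher wildtype level. It was the lowest ratio of all 28652 probes in both conditions. In the authors' deposited table the same probe stands at -4.85 and -5.13 on the LPS arrays and -4.31 and -3.82 on the basal arrays. The basal gap was thus wider in that table than with the processing used here, and the LPS gap was close to it.

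The same quantity for the Slfn8 probe A_66_P105585 was -0.84 and -0.35 on the LPS arrays and 0.18 and 0.26 on the basal arrays. Its mean log2 ratio was -0.59 ± 0.12 under LPS and 0.22 ± 0.12 at baseline. On the 2 LPS arrays the probes of Slfn8 differed in their log2 ratio by 3.97 and 4.69, and on the 2 basal arrays by 3.62 and 3.02. The probes of Slfn9 differed by -0.05 and -0.03 under LPS and by -0.03 and -0.33 at baseline, the first minus the second. On each array the probes of Slfn8 were further apart than those of Slfn9. Schlafen genes include near-identical copies, and the probe sequences were not used here, so whether a probe also bound the transcript of a neighbouring copy was not tested.

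The ratios of the other schlafen probes were small beside that gap. Slfn5 had a mean log2 ratio of -0.29 ± 0.080 under LPS and -0.65 ± 0.080 at baseline, and Slfn4 had -0.31 ± 0.077 under LPS and -0.37 ± 0.077 at baseline. Slfn1 had 0.03 ± 0.10 under LPS and -0.43 ± 0.10 at baseline. With the scanner's processed signals in place of the processing used here, the basal ratio became -1.09 for Slfn5, -1.33 for Slfn4 and -0.77 for Slfn1. The sizes of all 3 at baseline thus moved with the processing, and Slfn4 had only a bound in basal knockout cells.

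Slfn3 had a mean log2 ratio of -0.16 ± 0.081 under LPS and -0.18 ± 0.081 at baseline. Slfn2 had -0.09 ± 0.096 under LPS and -0.17 ± 0.096 at baseline, and both values turned positive, to 0.38 and 0.09, when arrays were centred on their median in place of loess. The Slfn9 probe A_55_P2117649 had 0.29 ± 0.070 under LPS and 0.11 ± 0.070 at baseline. The Slfn9 probe A_55_P2110537 had 0.25 ± 0.077 under LPS and -0.07 ± 0.077 at baseline, the basal value turning to 0.11 with median centring. With the processing used here, no array showed any of these 7 probes at less than 0.592 or more than 1.25 times its wildtype level. The lower bound does not hold in the authors' deposited table. There the log2 ratios on the basal arrays were -1.31 and -1.35 for Slfn4, -0.90 and -1.28 for Slfn5, and -0.43 and -1.11 for Slfn1.

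**Figure D3:**
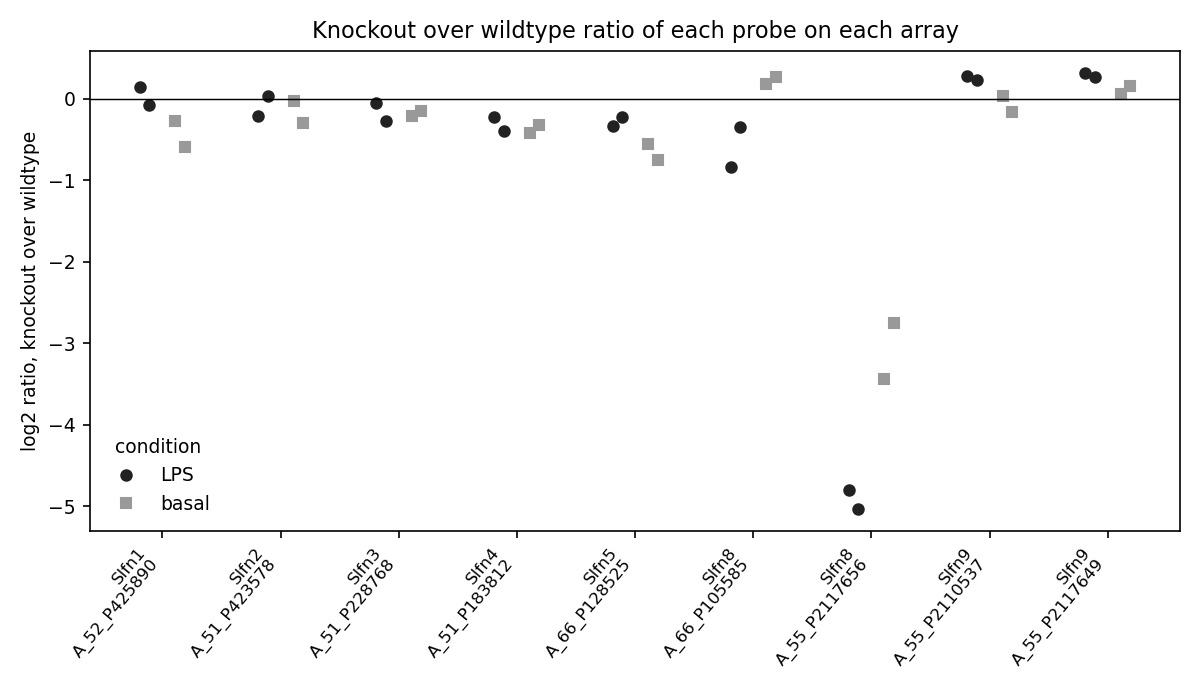
The vertical axis gives the log2 ratio of knockout over wildtype on each array for the 9 schlafen probes, with LPS arrays as circles and basal arrays as squares. The Slfn8 probe A_55_P2117656 lies between -5.03 and -2.76, and the other 8 probes lie between -0.84 and 0.32.

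Counted by a fold of 1.5, 1 of the 9 schlafen probes was at least that much lower in knockout cells on both LPS arrays, as were 0.88% of all probes. The count was 1 of 9 on both basal arrays, beside 0.426% of all probes, and 1 of 9 on all 4 arrays, beside 0.171% of all probes. In either direction, 1.09% of all probes were at least 1.5-fold apart the same way on all 4 arrays. The 1 schlafen probe in each count was A_55_P2117656 of Slfn8, and since the set was selected on this contrast, nothing is read from the counts. The median log2 ratio of the 9 probes was -0.16 under LPS and -0.18 at baseline, beside medians of -0.00287 under LPS and -2.02e-05 at baseline over all probes.

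The probes also differed in how the ratio moved between conditions, which is again given without a test. The LPS minus basal difference of the log2 ratio was -1.82 ± 0.22 for the Slfn8 probe A_55_P2117656 and -0.81 ± 0.17 for the Slfn8 probe A_66_P105585. It was 0.46 ± 0.14 for Slfn1, 0.37 ± 0.11 for Slfn5 and 0.32 ± 0.11 for the Slfn9 probe A_55_P2110537. For Slfn2, Slfn3, Slfn4 and the Slfn9 probe A_55_P2117649 it was between 0.02 and 0.18. With the processed signals the difference was -0.93 for A_55_P2117656 of Slfn8, 1.03 for Slfn4, 0.83 for Slfn5 and 0.79 for Slfn1. By a difference of at least 1.5-fold without overlap of the arrays, 2 of the 9 probes stood apart, both of Slfn8, beside 1.88% of all probes. Both Slfn8 probes thus had a lower ratio under LPS than at baseline on every array, and no other schlafen probe had a negative mean difference.

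Levels of the schlafen probes moved together over the 8 channel levels, meaning 4 arrays with 2 channels each. Pearson's r between any 2 of the probes other than A_55_P2117656 was 0.9661 to 0.9965. The probe A_55_P2117656 of Slfn8 had r of 0.660 to 0.776 with the others, and 0.761 with the second probe of its own gene. These levels share arrays and are dominated by the LPS difference, so they are given as a description. The probes on the array most like each schlafen probe, among those whose levels spanned at least 1 log2 unit, were Irf7 for Slfn1 (r = 0.9987), Ogfr for Slfn2 (r = 0.9997), Ddx58 for Slfn3 (r = 0.9995), Casp4 for Slfn4 (r = 0.9989) and Ifi209 for Slfn5 (r = 0.999). They were Rab9 and Usp15 for the 2 Slfn9 probes, Loxl3 for the Slfn8 probe A_66_P105585 and Ccl9 for the Slfn8 probe A_55_P2117656 (r = 0.991).

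Genes of the type I interferon route, chosen by role, rose as well. Of 13 genes of the route with 16 probes, 11 probes rose and 0 fell under LPS in knockout cells, and 12 rose and 0 fell in wildtype cells, with median responses of 1.52 in knockout and 1.44 in wildtype cells. Ifnb1, the ligand, was at least 20.8-fold higher under LPS in knockout cells (limma adjusted p = 0.01) and at least 23.1-fold higher in wildtype cells (limma adjusted p = 0.00634), because it was not well above background at baseline. Stat2, which encodes a signal transducer of the receptor, rose by 2.03 ± 0.21 in knockout and 2.06 ± 0.14 in wildtype cells. Irf7, a factor that amplifies interferon production, rose by 6.32 ± 0.31 in knockout and 5.82 ± 0.31 in wildtype cells. Usp18, an inhibitor of the receptor, rose by 6.23 ± 0.21 in knockout and 5.70 ± 0.16 in wildtype cells.

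The probes that did not pass in either genotype were those of Ifnar2, Jak1 and Irf3 and 1 of 3 for Ifnar1. Tyk2 was called in wildtype cells, at 1.00 ± 0.23, and not in knockout cells, at 1.07 ± 0.33 (limma adjusted p = 0.0567), a difference that was not tested. On the ratio scale, 0 of the 16 probes were at least 1.5-fold lower in knockout cells on both LPS arrays, beside 0.88% of all probes. On both basal arrays 1 was so, beside 0.426% of all probes. It was that of Usp18, with a mean log2 ratio of -0.79 at baseline. Irf7 had -0.61 at baseline. None was that far apart the same way on all 4 arrays, beside 1.09% of all probes. With shares this small, such counts in 16 probes cannot show that the route was unaffected. The median log2 ratio of the 16 probes was -0.07 under LPS and -0.02 at baseline.

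Promoter windows were read from RefSeq's annotation of assembly GRCm38.p6, from 250 bases before to 50 bases after each start, and all 7 genes matched, Slfn8 with 2 starts. The interferon-stimulated response element, searched as GAAANNGAAA on both strands, was in 4 of the 8 windows, those of Slfn5, Slfn9 and both starts of Slfn8, against 3.44% of 32851 windows. All 3 genes with the element are long schlafens. The windows are shown because these genes rose together under LPS while 1 Slfn8 probe had a ratio of its own; capitals mark the element, which lies on the complement strand in Slfn8 and Slfn9.
Slfn8, chr11:83020761-83021060, minus strand: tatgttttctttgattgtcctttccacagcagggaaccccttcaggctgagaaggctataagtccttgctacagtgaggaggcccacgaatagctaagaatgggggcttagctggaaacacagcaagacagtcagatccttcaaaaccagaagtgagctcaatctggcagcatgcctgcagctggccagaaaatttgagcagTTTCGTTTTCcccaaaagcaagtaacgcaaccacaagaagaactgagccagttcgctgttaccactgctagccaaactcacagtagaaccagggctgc
Slfn9, chr11:82991781-82992080, minus strand: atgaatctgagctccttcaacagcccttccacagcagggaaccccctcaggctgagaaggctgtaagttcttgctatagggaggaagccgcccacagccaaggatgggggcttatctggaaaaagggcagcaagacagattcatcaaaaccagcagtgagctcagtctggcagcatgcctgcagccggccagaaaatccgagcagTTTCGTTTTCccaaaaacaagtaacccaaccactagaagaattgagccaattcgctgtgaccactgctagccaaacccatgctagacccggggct
Slfn5, chr11:82951852-82952151, plus strand: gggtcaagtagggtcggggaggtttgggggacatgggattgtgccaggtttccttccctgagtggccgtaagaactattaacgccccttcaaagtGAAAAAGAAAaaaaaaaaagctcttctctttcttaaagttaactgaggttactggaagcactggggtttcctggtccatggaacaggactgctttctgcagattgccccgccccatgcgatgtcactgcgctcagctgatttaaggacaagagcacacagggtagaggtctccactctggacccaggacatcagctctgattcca
Slfn4, chr11:83174936-83175235, plus strand: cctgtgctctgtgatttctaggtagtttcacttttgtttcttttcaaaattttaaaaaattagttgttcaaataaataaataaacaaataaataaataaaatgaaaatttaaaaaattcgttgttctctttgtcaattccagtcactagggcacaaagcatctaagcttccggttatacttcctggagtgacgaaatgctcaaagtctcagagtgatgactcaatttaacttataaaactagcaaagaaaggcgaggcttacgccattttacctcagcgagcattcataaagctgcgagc

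The element began at position -48 from the start shown for Slfn8, at -45 for Slfn9 and at -155 for Slfn5. The window of the other Slfn8 start, chr11:83020673-83020972, holds the same element at position -136. The windows of Slfn8 and Slfn9 shown above were identical at 246 of 298 aligned columns, or 82.6%, while windows of every other pair of different genes were at most 49.8% identical. The 10 letters of the element are the same in Slfn8 and Slfn9 of this assembly. The sequences of the mice used were not read, and a part of the element in the Slfn8 ratio was not tested. Slfn4, which rose 36.3-fold under LPS in wildtype cells, has no match to these letters in its window.

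Another 3 elements were searched on both strands. The GAS element, TTCNNNGAA, was in 0 of the 8 windows, against 8.3% of all. The NF-kappaB element was in 2, those of Slfn9 and Slfn1, against 8.46% of all. The PU.1 element was in 4, those of Slfn1, Slfn2, Slfn3 and Slfn4, against 15.1% of all. The windows with a PU.1 match were thus those of the short and intermediate schlafens, and those with an interferon element were those of the long ones. A match is only a description of letters in a window, and where there is none, only these letters are missing from the window.

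Other genes named as schlafens were also on the array. Slfn10-ps, a pseudogene of the cluster, rose by 3.82 ± 0.13 in knockout cells (limma adjusted p = 0.000478) and by 3.66 ± 0.19 in wildtype cells (limma adjusted p = 0.000631), and its log2 ratio was 0.03 and 0.08 on the LPS arrays and -0.22 and 0.03 on the basal arrays. Slfn5os, an antisense transcript at Slfn5, was not well above background on any knockout array, so no LPS response could be read there. It was above background on 2 LPS and 1 basal array in wildtype cells, with a response of -0.0021 ± 0.095 that was not called (limma adjusted p = 0.988). On no array was Slfn14 or Slfnl1 well above background.

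The stretch around the schlafen genes was read in the order of the RefSeq gene table. It covered the 10 genes before Cdk5r1, the 44 between Cdk5r1 and the schlafen genes, the schlafen stretch and the 10 genes after it. Of the 74 genes of that stretch that are neither Cdk5r1 nor schlafens, 30 had probes that passed the filter, 37 in number. At a fold of 1.5 the same way on all 4 arrays, 0 of these 37 probes were apart between knockout and wildtype, including 0 of the 19 between Cdk5r1 and the schlafen genes. Among all probes the share was 1.09%, so a count of 0 in 37 cannot show that the neighbours were unaffected. By the same rule 0 of the 2 probes of Cdk5r1 itself were apart. The median log2 ratio of the 37 neighbour probes was -0.05 under LPS, with a range from -0.54 to 0.97, and -0.05 at baseline, with a range from -0.46 to 0.48. Among the 12 kept probes of the schlafen stretch itself, 1 was apart by this count, the Slfn8 probe A_55_P2117656.

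**Figure D4:**
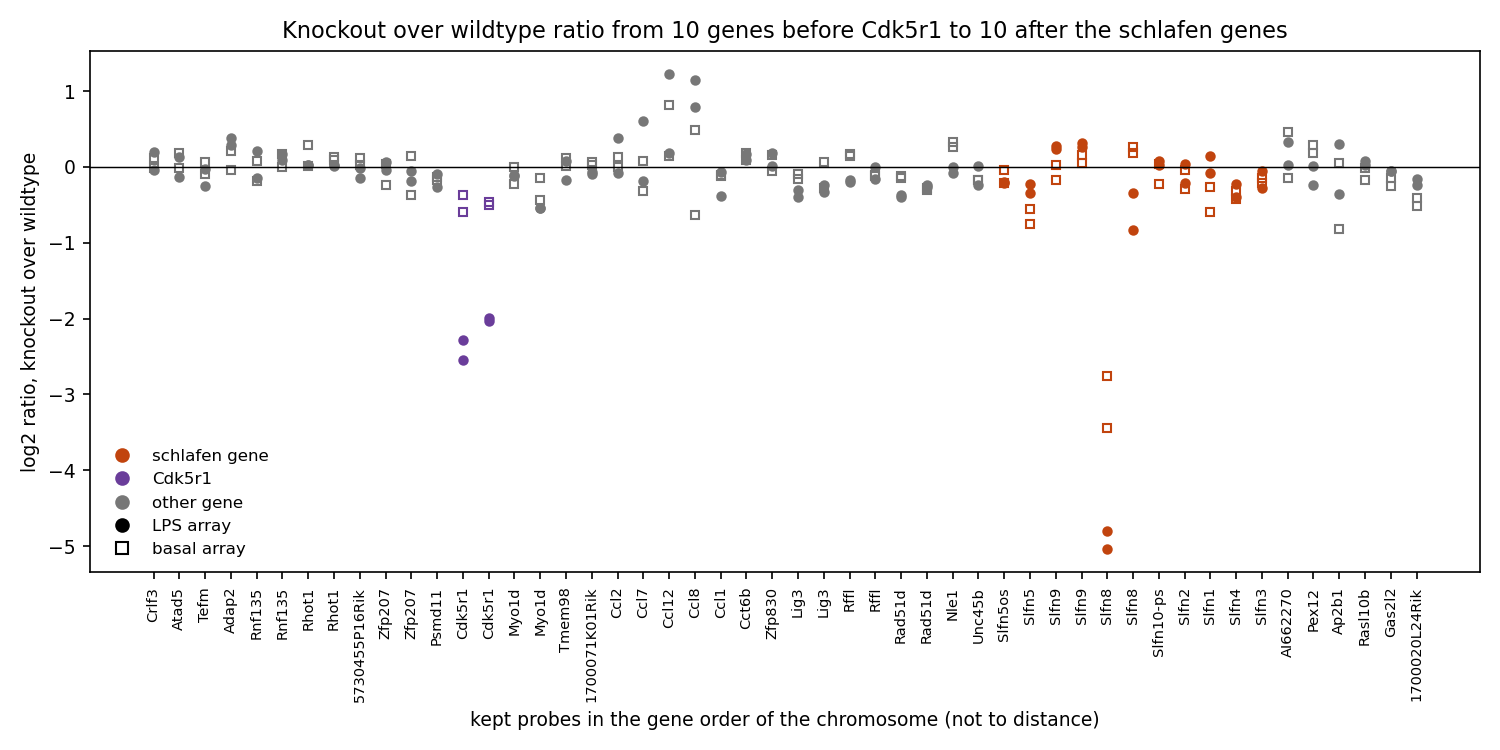
The vertical axis gives the log2 ratio of knockout over wildtype on each array for kept probes in the order of their genes on the chromosome, which is not to distance, with LPS arrays as circles and basal arrays as open squares. The Slfn8 probe A_55_P2117656, at -5.03 to -2.76, and the Cdk5r1 probes, at -2.55 to -0.37, reach the lowest values, and the other 8 probes of the schlafen genes described here lie between -0.84 and 0.32.

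Markers of other cell types moved with the genotype in these cultures, and in bulk RNA fewer cells of a type and less RNA per cell cannot be told apart. Of 10 granulocyte marker probes, 6 were at least 1.5-fold lower in knockout cells on all 4 arrays, beside 0.171% of all probes. They were those of S100a8, S100a9, Camp, Ltf and Ngp. The median log2 ratio of the 10 was -1.23 under LPS and -1.13 at baseline. For the rest it was -0.19 under LPS and -0.16 at baseline for Elane, and -0.10 and 0.004 for Cxcr2. In the same order it was -0.52 and -0.30 for Mmp8, and 0.39 and -0.19 for Mpo. The summed level of the 9 granulocyte markers was 96131 to 100998 in LPS-treated knockout cells, against 277202 to 301564 in LPS-treated wildtype cells, and 55987 to 85465 in basal knockout cells, against 115905 to 177390 in basal wildtype cells. In this sum of linear levels S100a8 and S100a9 weigh most, at mean log2 levels of 16.35 and 17.47 in LPS-treated wildtype cells. Cxcr2 was not well above background in LPS-treated knockout cells, and otherwise all 9 were above it on both arrays of each group. Of the 4 eosinophil, mast cell and basophil markers, 2 were lower on all 4 arrays by the same count; these were Epx and Prg2, while Cpa3, a mast cell protease gene, at log2 ratios of 0.57 under LPS and 0.81 at baseline, and Mcpt8, a basophil protease gene, at 0.27 under LPS and 0.73 at baseline, were higher in knockout cells in the mean. The sums of the 4 were 4852 to 6242 in LPS-treated knockout cells, against 11904 to 18100 in LPS-treated wildtype cells, and 1790 to 3220 in basal knockout cells, against 4854 to 6375 in basal wildtype cells. Of the marker probes of dendritic cells (7), T cells (4), B cells (4) and stromal cells (4), 0 were 1.5-fold apart on all 4 arrays. Among all probes the share was 1.09%, so this count cannot show that these markers were unaffected. Their median log2 ratios under LPS and at baseline were 0.24 and 0.05 for dendritic cells and -0.01 and -0.08 for T cells. They were 0.13 and -0.05 for B cells and -0.29 and -0.37 for stromal cells. The part of these cells in the Slfn8, Slfn4, Slfn5 and Slfn1 ratios was not tested.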

How the data were processed

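Gene expression was measured on 4 Agilent arrays with 2 colours each, wildtype RNA in Cy3 and knockout RNA in Cy5, from 10 µg of total RNA per labelling, per the labels. The deposited scanner files hold median foreground and background intensity per spot, extracted with Agilent Feature Extraction: the submitters' processing notes name version 9.3.2.1 and, per the file headers, it was 11.5.1.1. Their log10 ratio per spot, red over green as deposited, was not used further. The design had assumed median or mean intensities, and the files give medians. The authors' deposited table holds log2 ratios of red over green. Its columns equal the processed red over green signals on the log2 scale plus an offset of -0.00202 to 0.00507 per array, within 0.001 for 100% of 39030 probes; the origin of the offset is unknown. The column medians were 0.0292 and 0.0306 for the LPS arrays and 0.016 and 0.0344 for the basal arrays. Per the file headers all arrays shared 1 slide and 1 scan, which leaves no slide block to fit.

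Each array had 44397 spots. The 1377 control spots and 207 to 255 outlier spots per array were left out, and spots of a probe were averaged, which gave 39429 probes. Between 62.1% and 65.0% of the probe spots were well above background in the knockout channel and 68.3% to 71.0% in the wildtype channel. In limma 3.58.1 under R 4.3.3, normexp with an offset of 50 corrected the background, loess normalised the ratios and Aquantile the levels. Another 41 probes that passed the dim filter lacked a finite value on an array, and 28652 were kept. Accessions were matched to a RefSeq table of GRCm38.p6, in which 27508 probes found a symbol; the headers name another build, so positions are printed only for promoter sequences of that assembly. Tests of LPS against basal were two-sided, one per genotype channel, with lmFit and eBayes and a threshold of 0.05 on the Benjamini-Hochberg adjusted p. The other 4 of the 6 comparisons, of knockout over wildtype, were fitted in the same way on the ratios and printed without p. The scripts were tested on simulated data. Named genes were every schlafen probe, Cdk5r1, 13 interferon route genes, of which up to 5 were to be described, the neighbours and the likest probes. The members and lists were chosen with earlier results of these data known. The alternatives are named in the closing section.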

Additional observations from a re-analysis of the deposited data

Results flagged for a closer look

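The Slfn8 probe A_66_P105585 had a log2 ratio of knockout over wildtype below 0 on both LPS arrays, at -0.84 and -0.35, and above 0 on both basal arrays, at 0.18 and 0.26. Its difference of -0.8136 between LPS and basal, with opposite signs on all arrays of the 2 conditions, is what drew attention to it. The difference itself was not tested. Leaving out 1 array at a time gave -1.06 to -0.57.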

How the results depend on the processing

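LPS against basal kept its direction and its side of the threshold for all 9 schlafen probes in both genotypes under every alternative that was run, with a highest limma adjusted p of 0.0151 in knockout and 0.0156 in wildtype cells. The alternatives were the processed signals, median centring, scaling to the 75th percentile, no filter or a stricter one on dim probes, the brightest probe per gene (7 of 7 called), a separate-channel model, each array left out and the replicate block, which gave 9 in each genotype and changed no call. With 1 array left out, the lone array of its condition is assumed to vary like the other group. The sizes moved by over 1.5 times with the processed signals, upwards, for Slfn1, Slfn4, Slfn5 and both Slfn8 probes in knockout cells and for Slfn1, Slfn4 and the Slfn8 probe A_66_P105585 in wildtype cells. Arrays with the same number did not deviate together (r of -0.0851 in knockout and -0.194 in wildtype levels). With 2 arrays per condition this cannot settle whether the numbers mark shared animals or cultures. A block with crossed numbers, added after seeing the data, also gave 9 in each genotype. Scaling to the 75th percentile moved the median LPS response over all probes to 0.35 in knockout and 0.361 in wildtype cells. Of calls, 72.1% were then higher in knockout cells and 73.1% in wildtype cells, beside 45.6% in knockout and 43.9% in wildtype cells as reported. Of 28652 probes, 12903 were then called higher in knockout and 13684 in wildtype cells, beside 5507 in knockout and 5260 in wildtype cells as reported. A call of higher is thus far more common over all probes under this scaling. All calls over the array fell to 2459 higher and 2501 lower in knockout and 2812 higher and 3361 lower in wildtype cells without basal replicate 2, and to 2825 higher and 2899 lower in knockout and 2968 higher and 3520 lower in wildtype cells without basal replicate 1. The schlafen probes at least 1.5-fold lower in knockout cells on both basal arrays numbered 1, beside 0.426% of all probes. There were 3 with the processed signals and 3 with the authors' deposited log2 ratios, an alternative added after seeing the data. The deposited ratios are those of the processed signals up to a small offset, so here and below both alternatives rest on the same values. Leaving out 1 array gave 1 to 3, but without a basal array the rule is looser, as it rests on the basal array that is left. The count under LPS was 1, beside 0.88% of all probes, and 1 to 2 with 1 array left out, with the same limit. The shares of all probes under these alternatives were not counted. Schlafen probes whose ratio differed between conditions by at least 1.5-fold without overlap numbered 2 (1.88% of all probes). There were 5 with the processed signals (9.08%), 5 with the deposited ratios (9.13%) and 1 with the brightest probe per gene (1.98%). With 1 array left out there were 1 to 3 (1.99% to 3.46%), where no overlap sets 1 array against 2, an easier rule. The cause of these moves was not tested. Slfn4 was not well above background in basal knockout cells, which leaves a bound there, and no slide block could be fitted with 1 slide.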
